A study of Mus musculus with 23 samples.

Results

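Hippocampal messenger RNA of mice labelled Dp16;D-KO/K-KO was compared with that of wild-type mice (WT), gene by gene. The comparison used 10 of the 23 libraries of the series, 5 per group, namely F1, F2, M1, M2 and M3 of Dp16;D-KO/K-KO and F1, F2, M2, M3 and M4 of WT. It asks which differences from WT are found in trisomic animals in which, per the labels, the dosage of Dyrk1a and of Kcnj6 was corrected. All 4 groups of the series entered 1 model, so that the 7 Dp16 and 6 Dp16/D-KO libraries contributed to the estimate of the spread. Values are RPKM, reads scaled to gene length and to the mapped reads of the library, and 13971 genes with a mean of at least 0.5 RPKM over all 23 libraries were tested. A gene is described as called, or as having risen or fallen, where its adjusted p was under 0.05. Changes are differences of log2(RPKM + 0.1), adjusted for batch, and stand in parentheses after a gene's values, and they understate the change of genes near 0.

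Both groups hold libraries of 2 batches. In batch 1 (WT F1 and M2, Dp16;D-KO/K-KO M1 and M2) the molecule is given as total RNA, the strain background as C57BL/6 and the age as 2-3 months, and the genotypes are wild type and trisomy with both genes corrected. In batch 2 (WT F2, M3 and M4, Dp16;D-KO/K-KO F1, F2 and M3) the molecule is given as polyA RNA, the strain as >90% C57/B6 and the genotypes as WT and Dp16;Dyrk1a-KO/Kcnj6-KO, and no age is given. The letters F and M are those of the library names, and in batch 2 a sex label matches them. The labels do not say how either knockout allele was built or on which chromosome it lies. Nor do they say whether WT animals were littermates, or whether each library is a separate animal. The p-values therefore set each change against the spread between libraries of all 4 groups, which may not be that between animals.

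Dp16 mice, a model of Down syndrome, have a duplication of a stretch of mouse chromosome 16 that corresponds to much of human chromosome 21. Its genes, called the segment below, are therefore present in 3 copies in place of 2. Dyrk1a encodes a protein kinase of the brain that phosphorylates, among others, NFAT transcription factors, opposing calcineurin, and its dose affects brain size and neuronal number in mice. Kcnj6 encodes GIRK2, a subunit of the potassium channels that G-protein-coupled receptors such as the GABA-B receptor open, which lowers the excitability of hippocampal neurons. Removing 1 copy of a segment gene from a Dp16 animal brings its copy number back to that of WT, while all other segment genes stay at 3 copies.

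Over the series, RPKM summed to between 353904 and 373054 per library, and log2 profiles of libraries correlated by 0.965 to 0.993. The depth of the 10 libraries, estimated from the steps between low values, was put at 14.8 to 17 M reads, a rough figure, as whole reads were not recovered. Hippocampal markers were present in every library, with summed levels of 137 to 178 RPKM for dentate granule neurons and 244 to 338 for CA1 neurons. The sex letter of 2 WT libraries went against their Y-linked expression. WT F1 had 12.7 RPKM of Ddx3y and 5.06 of Kdm5d, the level of libraries lettered M, and WT M3 had 0.01 RPKM of Ddx3y and 0 of Kdm5d. WT M3 also had a batch score, the mean of 200 genes that differ between the batches, scaled to 0 in batch 1 and 1 in batch 2, of 0.0513, among the batch 1 libraries. Among the 10 libraries, 2 held little choroid plexus RNA, WT F1 with 10.3 RPKM of Ttr and Dp16;D-KO/K-KO M3 with 17.2, against 553 to 3760 in the other 8. Values without WT F1 and M3 are also given where leaving them out ended the call of a gene described singly.

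The targeted genes were not lower than in Dp16. Dyrk1a (chromosome 16, 94569098 to 94698689, mm10) read 17.7, 15.9, 17.5, 18.04 and 15.4 RPKM in WT F1, F2, M2, M3 and M4. In Dp16;D-KO/K-KO F1, F2, M1, M2 and M3 it read 24.3, 22.3, 25.3, 26.03 and 25.4, the order of libraries kept below for both groups. All 5 libraries labelled Dp16;D-KO/K-KO lay above all 5 WT libraries. The log2 change was 0.54 (95% interval 0.45 to 0.64, 1.46-fold, adjusted p = 8.49e-08). Dp16 libraries ranged from 22.7 to 26.6 RPKM and Dp16/D-KO libraries from 21.3 to 26.5, and the difference of Dp16;D-KO/K-KO from Dp16 was 0.024 on the log2 scale (-0.065 to 0.11, adjusted p = 0.889). The log2 ratio of 3 copies to 2 is 0.585, and a fall of that size lies outside the interval.

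Kcnj6 (chromosome 16, 94748683 to 94997696) showed the same. Its RPKM was 18.2, 15.3, 19.1, 18.6 and 20.4 in WT and 27.1, 26.01, 24.9, 23.1 and 26.96 in Dp16;D-KO/K-KO, again with no overlap. The log2 change was 0.49 (0.31 to 0.66, 1.402-fold, adjusted p = 0.00205). Fitted in each batch alone, the change was 0.36 in batch 1 and 0.57 in batch 2, and neither was called. Against Dp16, where Kcnj6 ranged from 23.2 to 31.9 RPKM, the difference was -0.062 (-0.22 to 0.10, adjusted p = 0.8304). The authors' deposited table gives the same picture, with a log2 fold change from WT of 0.55 for Dyrk1a and 0.50 for Kcnj6. An RPKM over a whole gene counts reads of any transcript that an inactivated allele still makes, and the labels do not say which exons the alleles lack. Reads over a deleted part were not analysed here, so these values do not check the labels, and the group is named below by its label.

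**Figure D1:**
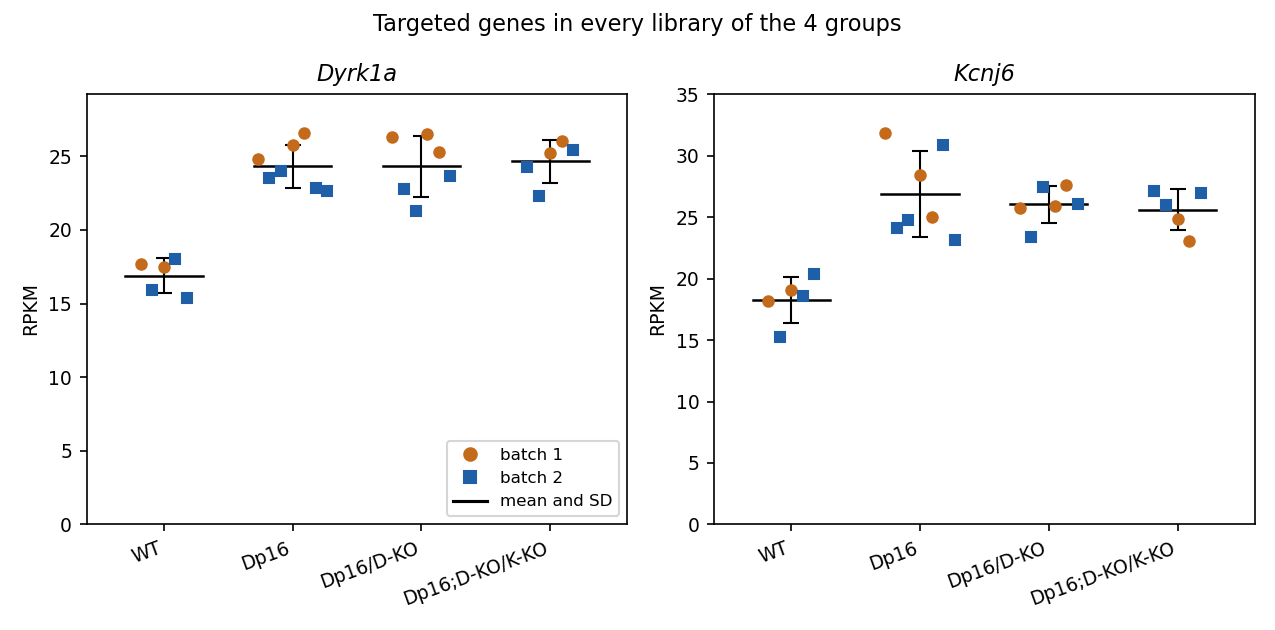
RPKM of Dyrk1a and Kcnj6 (vertical axes) in every library of the 4 groups (horizontal axes), with orange circles for batch 1, blue squares for batch 2 and black lines for the mean and SD. WT libraries lie at 15.4 to 18.0 for Dyrk1a and 15.3 to 20.4 for Kcnj6, and every library of the other 3 groups lies above them.

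Across all genes, 105 of 13971 (0.752%) differed between Dp16;D-KO/K-KO and WT in limma's test, 84 higher (0.601%) and 21 lower (0.15%). At an unadjusted p under 0.05 there were 1333. The authors' deposited table calls 112, 93 higher and 19 lower, of which 85 are among the 105. Genes that it calls and that are not called here include Bace2, Npnt, Glis3, Cacng5, Prkcd, Ctss and Gnb5. Genes called here that it does not call include Pcp4, Urb1, Mrpl39, Cbs, Chst9, Mcts1, Lgals4, Wfs1 and Dynlt1f. The segment held 67 of the called genes, all of them higher, and the remaining 38 lay outside it, 17 higher and 21 lower. In 94 genes (0.673%) all 5 Dp16;D-KO/K-KO libraries lay above all 5 WT libraries, and in 57 (0.408%) all lay below. Of the 94, 58 were segment genes, and none of the 57 was. Without WT F1 and M3 81 genes were called, 70 higher and 11 lower, and 66 of these were among the 105.

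The segment genes rose as a block. The segment list has 103 symbols, of which 101 had values, 18 of these stayed under the minimum level, and 83 were tested. All 83 had a higher fitted level in Dp16;D-KO/K-KO, 67 were called, and in 58 the groups did not overlap, against 0.601% called higher and 0.673% without overlap among all genes tested. The median log2 change was 0.55, or 1.47-fold, against 0.0033 over all genes tested. It was 0.54 in batch 1 and 0.54 in batch 2, and 0.55 without WT F1 and M3. Summed over the segment, RPKM ran from 2367 to 2458 in WT and from 3389 to 3651 in Dp16;D-KO/K-KO. Called genes ranged from 1.26-fold to 1.76-fold. The 95% interval of 57 of the 67 held the ratio of 3 copies to 2, a log2 change of 0.585, while 9 intervals lay wholly below it and 1 lay above. With each of the 10 libraries left out in turn, 60 of the 67 were called every time, the others being Ncam2, Urb1, Adamts1, Il10rb, Smim11, Pcp4 and Slc5a3. Without WT F1 and M3, 58 were called, and the calls lost were those of Ncam2, Adamts1, Il10rb, Mrpl39, Smim11, D16Ertd472e, Pcp4, Slc5a3 and Olig1. Against Dp16, none of the 83 was called, and their median difference was 0.017. Against the same WT libraries, the segment median was 0.52 in Dp16 and 0.52 in Dp16/D-KO.

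**Figure D2:**
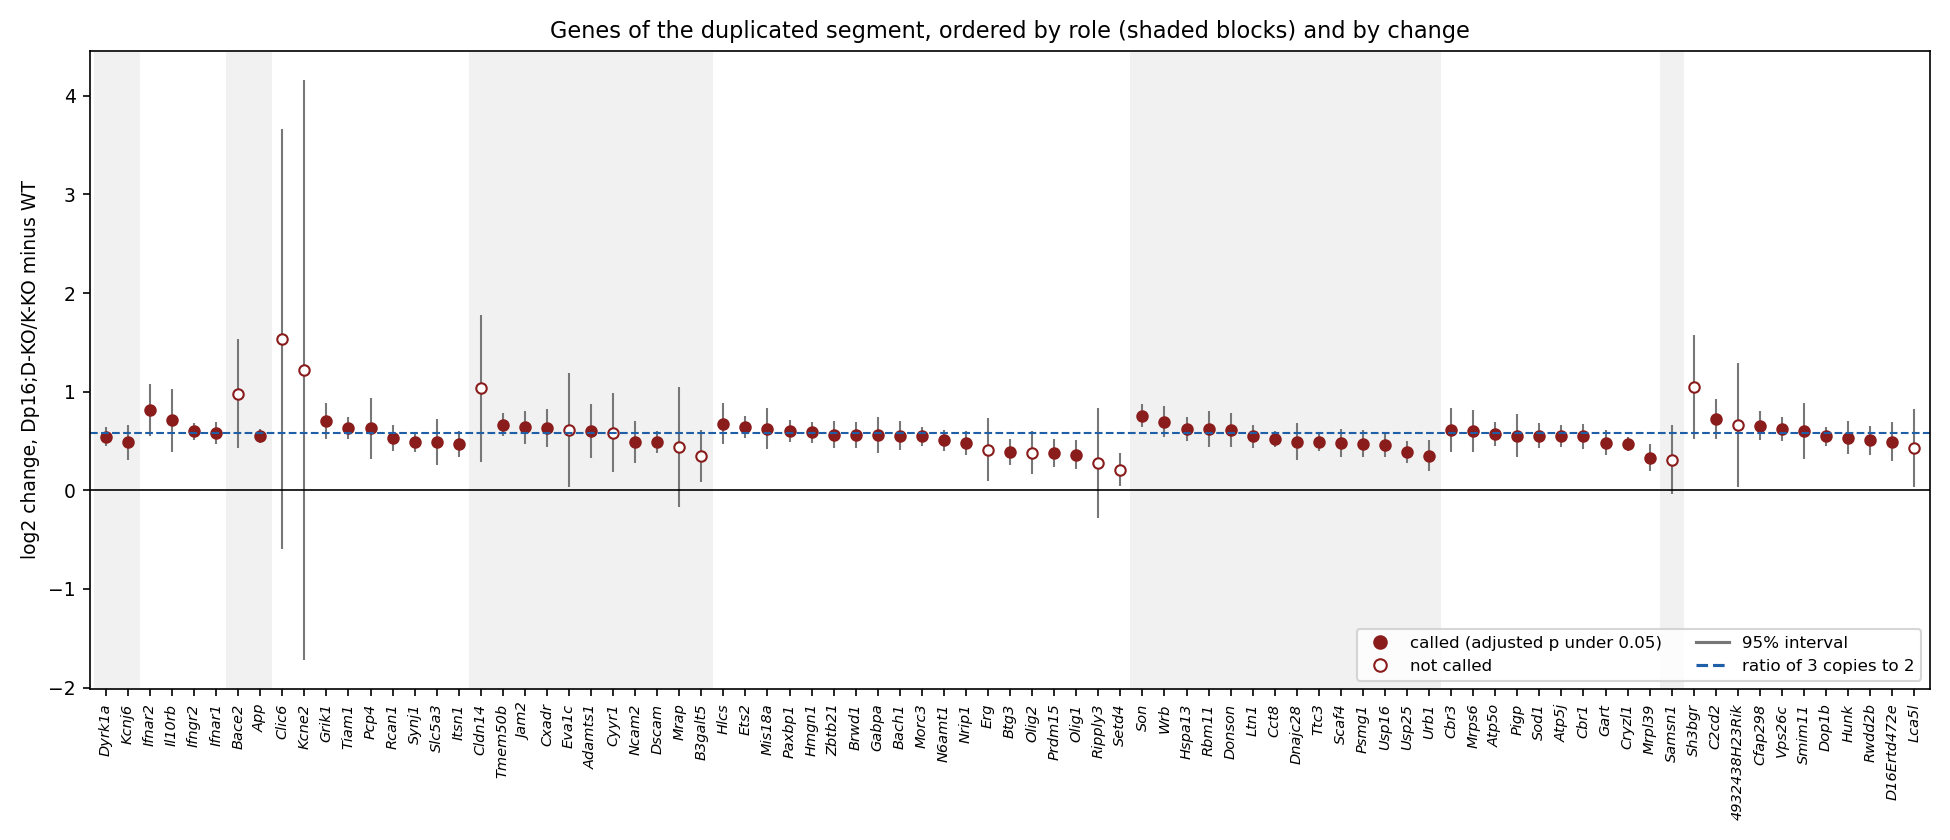
Log2 change from WT to Dp16;D-KO/K-KO (vertical axis) of the 83 tested segment genes, in blocks by role and, within a block, by size. Filled points are called, open points are not, bars are 95% intervals, and the dashed line marks the ratio of 3 copies to 2. All points lie above 0, and most filled ones cluster around the dashed line with a median of 0.55.

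The receptors for interferons and interleukin 10 are clustered in the segment, and all 4 of them rose. Ifnar2, a subunit of the type I interferon receptor, read 9.44, 13.1, 10.7, 9.31 and 16.1 RPKM in WT and 22.9, 23.8, 20.4, 18.03 and 16.7 in Dp16;D-KO/K-KO, with a log2 change of 0.81 (SE 0.13, adjusted p = 0.000485). The lowest Dp16;D-KO/K-KO library lay just above the highest WT library. Ifnar1, the other subunit, was 10.7 to 11.9 in WT and 16.2 to 17.7 in Dp16;D-KO/K-KO (0.58). Ifngr2, of the interferon gamma receptor, was 31.9 to 35.9 and 49.1 to 54.6 (0.60). Il10rb, a chain shared by receptors of the interleukin 10 family, read 4.13, 6.03, 5.25, 4.24 and 5.55 in WT and 8.5, 8.48, 8.68, 9.01 and 6.6 in Dp16;D-KO/K-KO (0.71, adjusted p = 0.0269). Its groups did not overlap, but the call was lost without WT F1 and M3 (0.55, adjusted p = 0.272).

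App, the amyloid precursor protein, whose dose in Down syndrome is tied to early Alzheimer pathology, was among the most abundant segment genes. It read 502, 506, 485, 509 and 494 RPKM in WT and 747, 745, 686, 725 and 757 in Dp16;D-KO/K-KO, with no overlap. The log2 change was 0.55 (SE 0.035, adjusted p = 9.47e-10). Bace2, a secretase that also cleaves App, was low, at 0.40, 0.97, 1.5, 1.12 and 0.43 in WT and 2.48, 1.04, 1.45, 1.72 and 1.89 in Dp16;D-KO/K-KO. Its groups overlapped and it was not called (0.98, adjusted p = 0.112).

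Among the 9 synaptic and ion channel genes of the segment tested, 7 rose. Grik1, the kainate receptor subunit GluK1, read 3.28, 4.11, 4.23, 3.46 and 3.53 RPKM in WT and 5.92, 5.95, 5.55, 6.37 and 6.66 in Dp16;D-KO/K-KO (0.70, SE 0.089, adjusted p = 2.75e-05). Every Dp16;D-KO/K-KO library was above every WT library. Synj1, the phosphatase synaptojanin 1 of synaptic vesicle recycling, ranged over 74.6 to 87.1 in WT and 109.8 to 124 in Dp16;D-KO/K-KO (0.49). Tiam1, an activator of Rac at dendritic spines, ranged over 20.3 to 22.4 and 31.3 to 37.02 (0.63), and Itsn1, an endocytic scaffold, over 20.7 to 26.5 and 29.1 to 35.3 (0.47). Rcan1, an inhibitor of calcineurin, read 22.01, 19.9, 20.2, 24.9 and 18.4 in WT and 29.5, 28.3, 32.2, 32.2 and 29.5 in Dp16;D-KO/K-KO, again apart (0.53, adjusted p = 7.77e-06). Slc5a3, a myo-inositol transporter, was called at 0.49 (adjusted p = 0.0441), in 2 of the 10 fits that left a library out, and not without WT F1 and M3 (0.46, adjusted p = 0.223).

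Pcp4, a calmodulin regulator abundant in CA2 neurons, was wider spread. It read 101, 149, 117, 97.8 and 172 RPKM in WT and 213, 194, 167, 203 and 188 in Dp16;D-KO/K-KO, where the highest WT library, M4, was above the lowest Dp16;D-KO/K-KO library. It was called with all libraries (0.63, adjusted p = 0.0476) but not without WT F1 and M3 (0.44, adjusted p = 0.326). The call was kept in 2 of the 10 fits that leave a library out. Clic6 and Kcne2, a chloride channel and a potassium channel subunit of choroid plexus epithelium, had the largest segment changes at 1.53 and 1.22, but neither was called (adjusted p = 0.681 and 0.837). Clic6 read 0.54, 10.9, 14.5, 5.89 and 13.3 RPKM in WT and 21.5, 23.6, 36.99, 29.6 and 2.89 in Dp16;D-KO/K-KO, and WT F1 and Dp16;D-KO/K-KO M3 were the lowest of their groups. Both genes are on the choroid plexus list below, and the part of choroid plexus content in their values was not tested.

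Cell adhesion and surface genes were called in 6 of 11. Dscam, the Down syndrome cell adhesion molecule, which guides neurite self-avoidance, read 10.8, 11.3, 11.4, 11.8 and 12.8 RPKM in WT and 17.2, 15.1, 16.1, 15.2 and 18.1 in Dp16;D-KO/K-KO (0.49, SE 0.055, adjusted p = 3.72e-06), with no overlap. Tmem50b, a membrane protein of the early secretory pathway, was the most abundant of them and ranged over 45.5 to 58.2 in WT and 73.04 to 88.3 in Dp16;D-KO/K-KO (0.67). Ncam2, a neural cell adhesion molecule, overlapped between groups, with 7.37 to 10.4 in WT and 10.2 to 15.1 in Dp16;D-KO/K-KO (0.49, adjusted p = 0.0169 and without WT F1 and M3 0.41, adjusted p = 0.1999). B3galt5, a galactosyltransferase, read 22.8, 13.98, 20.5, 22.5 and 13.9 in WT and 20.6, 19.7, 28.4, 29.7 and 19.98 in Dp16;D-KO/K-KO and was not called (0.35, adjusted p = 0.355). The highest were WT F1, M3 and M2, and M2 and M1 of Dp16;D-KO/K-KO. Jam2 and Cxadr, cell junction proteins, rose by 0.64 and 0.63, and Adamts1, a secreted protease, by 0.60 (adjusted p = 0.0272), a call kept in 4 of the 10 fits and lost without WT F1 and M3 (0.57, adjusted p = 0.135). Cyyr1, Cldn14, Mrap and Eva1c were not called, with changes of 0.44 to 1.04.

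Of the transcription factor and chromatin genes, 15 of 19 rose. Hmgn1, a nucleosome-binding protein, read 39.6, 41.7, 44.3, 42.7 and 36.04 RPKM in WT and 63.5, 57.04, 64.9, 64.1 and 57.7 in Dp16;D-KO/K-KO (0.59, SE 0.052, adjusted p = 1.24e-07), and Ets2, an ETS-family factor, ranged over 20.04 to 23.8 and 31.3 to 36.6 (0.64). Groups did not overlap for either. Olig1, a factor of the oligodendrocyte lineage, rose less, with 67.5, 81.8, 67.4, 70.1 and 67.6 in WT and 95.2, 95.6, 83.7, 86.6 and 93.2 in Dp16;D-KO/K-KO (0.36, adjusted p = 0.00898), and was not called without WT F1 and M3 (0.34, adjusted p = 0.0816). Its neighbour Olig2, of the same lineage, overlapped between groups, 12.9 to 19.9 against 17.4 to 24.4 (0.38, adjusted p = 0.121). Setd4, a methyltransferase, had the smallest change of the segment at 0.21 (adjusted p = 0.387), reading 7.04, 5.24, 7.04, 6.28 and 5.06 in WT and 5.65, 7.34, 8.53, 7.58 and 6.41 in Dp16;D-KO/K-KO. Ripply3, a partner of Tbx1, was near 1 RPKM in both groups (0.28, adjusted p = 0.798). The other called members were Brwd1, Paxbp1, Btg3, N6amt1, Gabpa, Nrip1, Morc3, Mis18a, Zbtb21, Prdm15, Bach1 and Hlcs, with changes of 0.38 to 0.68. They include Bach1, a repressor of heme oxygenase, Nrip1, a corepressor of nuclear receptors, and Gabpa, an activator of mitochondrial genes. Erg, an endothelial factor, was not called (0.41, adjusted p = 0.369).

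RNA processing and protein quality genes rose in 14 of 14 cases. Son, a splicing protein of nuclear speckles, read 44.9, 42.7, 49.4, 38.9 and 48.9 RPKM in WT and 74.5, 75.7, 83.9, 73.5 and 71.5 in Dp16;D-KO/K-KO (0.76, SE 0.057, adjusted p = 1.55e-08). Its interval, 0.64 to 0.87, was the only one among called genes that lay wholly above the ratio of 3 copies to 2. Ttc3, a ubiquitin ligase, ranged over 121 to 138 in WT and 174 to 193 in Dp16;D-KO/K-KO (0.49), and Cct8, a chaperonin subunit, over 53.01 to 64.7 and 75.3 to 87.7 (0.52). Wrb, a receptor for tail-anchored proteins at the endoplasmic reticulum, read 17.8, 18.04, 19.8, 18.8 and 13.7 in WT and 29.4, 26.6, 28.01, 29.97 and 27.9 in Dp16;D-KO/K-KO (0.69, adjusted p = 3.18e-06). None of these 4 overlapped between groups. Urb1, of ribosome assembly, was the smallest called change of this group (0.35, adjusted p = 0.0195), with 2.01 to 2.52 in WT and 2.35 to 3.59 in Dp16;D-KO/K-KO. The remaining 9, among them the deubiquitinases Usp16 and Usp25, the ribosome quality control ligase Ltn1 and the chaperone Hspa13, rose by 0.39 to 0.62.

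Metabolic and mitochondrial genes of the segment also rose in every case, 10 of 10. Sod1, the cytosolic superoxide dismutase, read 191, 194, 198, 213 and 208 RPKM in WT and 272, 294, 334, 321 and 258 in Dp16;D-KO/K-KO (0.55, SE 0.06, adjusted p = 3.04e-06). The groups were apart, and within Dp16;D-KO/K-KO the batch 1 libraries M1 and M2 were highest, so that the change was 0.75 in batch 1 and 0.42 in batch 2, with an adjusted p of 0.241 for the difference between batches. Atp5o and Atp5j, subunits of the mitochondrial ATP synthase, ranged over 155 to 213 and 141 to 174 in WT, and over 245 to 325 and 212 to 261 in Dp16;D-KO/K-KO (0.57 and 0.55). Mrpl39, of the mitochondrial ribosome, rose least, with 25.5 to 34.4 in WT and 35.5 to 40.8 in Dp16;D-KO/K-KO (0.33, adjusted p = 0.00908 and without WT F1 and M3 0.23, adjusted p = 0.0739). Cbr1 and Cbr3, carbonyl reductases, Mrps6, Pigp, Cryzl1 and Gart, an enzyme of purine synthesis, rose by 0.47 to 0.61.

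Other segment genes were called in 8 of 11. C2cd2 read 2.69, 3.02, 2.84, 2.88 and 3.41 RPKM in WT and 5.74, 4.27, 5.09, 5.29 and 4.55 in Dp16;D-KO/K-KO, with no overlap (0.73, adjusted p = 6.13e-05). Sh3bgr, at 0.82, 0.89, 1.07, 0.78 and 1.04 in WT and 1.91, 1.36, 2.67, 2.54 and 1.78 in Dp16;D-KO/K-KO, had a larger change (1.05) but was not called (adjusted p = 0.0594), although its groups did not overlap. Cfap298, Dop1b, Smim11, Vps26c, Hunk, Rwdd2b and D16Ertd472e were called at 0.49 to 0.65. Of these, Smim11 and D16Ertd472e lost their call without WT F1 and M3 (adjusted p = 0.166 and 0.132). Of the 16 tested segment genes that were not called, 11 had a mean below 3 RPKM. Samsn1, the only member tested of the 3 interferon-induced genes listed in the segment, was among them, at 0.47 to 0.80 in WT and 0.53 to 0.98 in Dp16;D-KO/K-KO.

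On the rest of chromosome 16, outside the segment, 352 genes were tested and none was called higher. Over all genes tested 0.601% were called higher, but 67 of those 84 were segment genes and only 17 lay outside it. None among 352 is therefore not read as a shortage. The 2 called lower, against 0.15% of all genes tested, were Tbx1 and Cluap1, named here after their values were seen. Tbx1, a T-box factor of heart and pharyngeal development, was low, at 0.97, 0.80, 0.73, 0.99 and 1.2 RPKM in WT and 0.55, 0.36, 0.48, 0.43 and 0.38 in Dp16;D-KO/K-KO, and its groups did not overlap (-0.94, adjusted p = 0.0156 and without WT F1 and M3 -0.88, adjusted p = 0.132). Cluap1, a protein of ciliary transport, ranged over 12.8 to 17.4 and 10.6 to 14.7 (-0.24, adjusted p = 0.0179). Each was called in 7 of the 10 fits that left a library out. The median of the 352 was -0.011, against 0.0033 over all genes.

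Outside the segment 38 genes were called, and few of the calls were kept in every fit that left a library out. The number called ran from 14 without WT F1 to 51 without WT M3 when 1 library was left out. It was 18 without WT M4, and 21, 22 and 17 without F1, F2 and M2 of Dp16;D-KO/K-KO. Of the 38 genes, 6 were called in all 10 such fits, all of them higher in Dp16;D-KO/K-KO: the nonagouti gene a, Selenov, Cpne5, Col4a2, Pxn and Slc5a5. None of the 21 lower genes was called in all 10. Without WT F1 and M3, 23 genes outside the segment were called, 12 higher and 11 lower, and 8 of these were among the 38.

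The nonagouti gene a (chromosome 2, 154950204 to 155051012) had the largest change of those named. It encodes the agouti signalling protein, an antagonist of melanocortin receptors that sets coat colour, and C57BL/6 mice carry a loss-of-function allele of it. It read 0.49, 0.49, 0.75, 0.50 and 0.47 RPKM in WT and 3.57, 4.01, 5.55, 5.15 and 4.69 in Dp16;D-KO/K-KO, so every Dp16;D-KO/K-KO library was several times higher than any WT library. The log2 change was 2.87 (SE 0.15, 7.33-fold, adjusted p = 3.94e-11), and 2.94 in batch 1 and 2.83 in batch 2. The authors' deposited table gives a smaller log2 fold change for it, 1.45. Levels in the other trisomic groups were 5.14 ± 0.92 (SD, n = 7) in Dp16 and 3.65 ± 0.56 (SD, n = 6) in Dp16/D-KO. Of 9 tested genes listed for nonagouti and melanocortin signalling, it alone was called. Mgrn1, a ubiquitin ligase of that pathway, read 64.01 to 73.9 in WT and 70.5 to 73.9 in Dp16;D-KO/K-KO.

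Selenov, a selenoprotein gene best known from testis, was at 0.19, 0.43, 0.24, 0.24 and 0.21 RPKM in WT and 1.15, 0.58, 1.44, 1.61 and 0.76 in Dp16;D-KO/K-KO. All Dp16;D-KO/K-KO values were above the WT values, and the batch 1 libraries M1 and M2 were highest. The log2 change was 1.69 (SE 0.21, adjusted p = 2.50e-05), and 2.37 in batch 1 and 1.24 in batch 2, with an adjusted p of 0.241 for the difference between batches. Its change from WT in Dp16, a comparison that shares the WT libraries, was 1.87. Slc5a5, the sodium iodide symporter, read 5.95, 7.22, 7.22, 7.29 and 7.15 in WT and 10.7, 10.8, 12.1, 10.4 and 11.3 in Dp16;D-KO/K-KO, apart by a wide gap (0.66, SE 0.13, adjusted p = 0.00825). It lost its call without WT F1 and M3 (0.63, adjusted p = 0.0890), a fit with 3 WT libraries. Its change from WT in Dp16 was 0.73.

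Cpne5, a copine that binds membranes in the presence of calcium, read 9.19, 13.7, 10.3, 10.6 and 10.6 RPKM in WT and 16.5, 18.8, 12.3, 14.4 and 14.6 in Dp16;D-KO/K-KO. WT F2 lay above the lowest Dp16;D-KO/K-KO library, and within each batch the groups were apart (0.49, SE 0.075, adjusted p = 0.000347). Pxn, paxillin, an adaptor of focal adhesions, read 15.9, 16.6, 14.04, 14.9 and 15.4 in WT and 19.1, 22.7, 23.6, 20.3 and 18.5 in Dp16;D-KO/K-KO with no overlap (0.43, SE 0.083, adjusted p = 0.00760 and without WT F1 and M3 0.43, adjusted p = 0.0504). From WT to Dp16 the changes were 0.31 and 0.19.

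**Figure D3:**
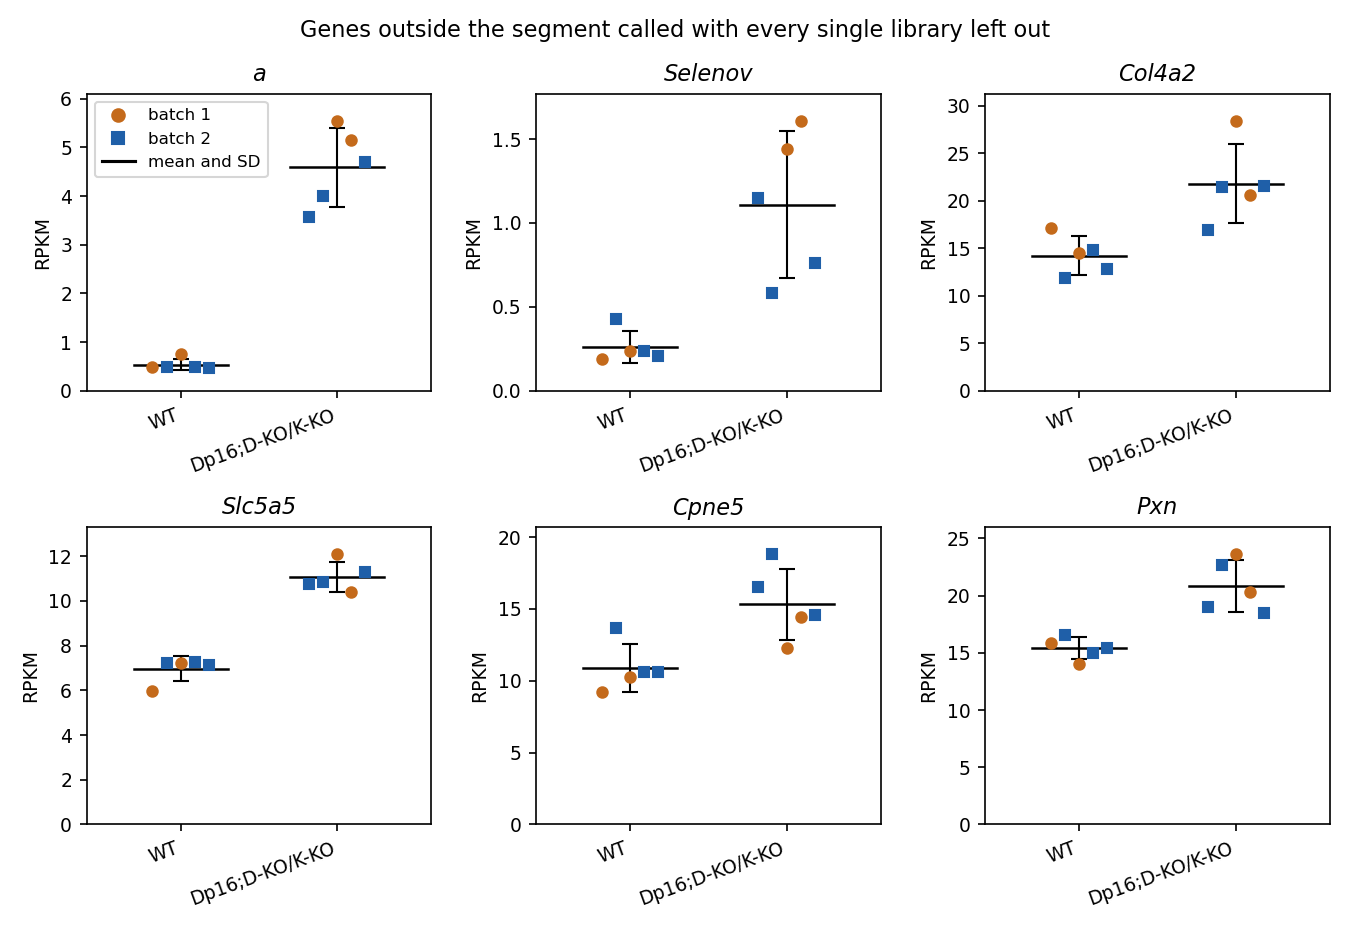
RPKM (vertical axes, each from 0) of the 6 genes outside the segment that were called with every single library left out, in the 5 WT and 5 Dp16;D-KO/K-KO libraries. Orange circles are batch 1, blue squares batch 2 and black lines the mean and SD. For a, Selenov, Slc5a5 and Pxn no values overlap, while Cpne5 and Col4a2 each have a WT library above the lowest of the other group.

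Collagen IV genes rose together. Col4a2 (chromosome 8, 11312805 to 11449287), the alpha-2 chain of the collagen IV network of basement membranes, read 17.2, 11.8, 14.5, 14.8 and 12.8 RPKM in WT and 16.9, 21.4, 28.4, 20.6 and 21.5 in Dp16;D-KO/K-KO. WT F1 lay above Dp16;D-KO/K-KO F1, and within each batch the groups were apart (0.60, SE 0.12, adjusted p = 0.00739). Its partner Col4a1 (chromosome 8, 11187755 to 11312826), the alpha-1 chain, named after its values were seen, ranged over 9.53 to 13.7 and 12.9 to 19.3 (0.41, adjusted p = 0.0171) and was called in 6 of the 10 fits that left a library out. Col15a1, a collagen of vascular basement membranes, read 1.4, 1.65, 1.8, 1.66 and 1.58 in WT and 2.81, 2.11, 3.3, 3.13 and 1.7 in Dp16;D-KO/K-KO. In it M3 of Dp16;D-KO/K-KO lay within the WT range (0.62, adjusted p = 0.0299 and without WT F1 and M3 0.55, adjusted p = 0.174), and the call was kept in 4 of the 10 fits. Its change was 0.97 in batch 1 and 0.39 in batch 2. In Dp16 the change of Col4a2 from WT was 0.46, and Dp16;D-KO/K-KO did not differ from Dp16 at the threshold (0.14, -0.082 to 0.37, adjusted p = 0.678). Col4a2 and Col4a1 rose also without WT F1 and M3 (0.70 and 0.48). Meningeal fibroblast markers, summed, were at 66.5, 93.2, 91.7, 55.3 and 129 RPKM in WT and 116, 116, 132, 128 and 54.3 in Dp16;D-KO/K-KO, and their part in the collagen values was not tested.

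Col4a1 and Col4a2 lie on opposite strands with start sites 21 bases apart, so their promoters are shown. Each start lies just inside the other gene, so the genes overlap at their starts. Each window holds 250 bases before and 50 after the start in RefSeq (GRCm38.p6), and the windows overlap by 78 bases. Col4a1 lies at chr8:11312777-11313076 on the minus strand and Col4a2 at chr8:11312555-11312854 on the plus strand. Capitals mark matches to CCAAT and GGGCGG on either strand, which do not overlap each other here.
Col4a1: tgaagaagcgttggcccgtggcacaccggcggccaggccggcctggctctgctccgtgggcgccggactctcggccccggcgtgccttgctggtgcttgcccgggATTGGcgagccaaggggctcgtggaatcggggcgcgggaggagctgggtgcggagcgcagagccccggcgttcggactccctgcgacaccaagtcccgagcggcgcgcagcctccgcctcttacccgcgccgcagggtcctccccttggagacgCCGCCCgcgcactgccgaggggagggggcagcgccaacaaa
Col4a2: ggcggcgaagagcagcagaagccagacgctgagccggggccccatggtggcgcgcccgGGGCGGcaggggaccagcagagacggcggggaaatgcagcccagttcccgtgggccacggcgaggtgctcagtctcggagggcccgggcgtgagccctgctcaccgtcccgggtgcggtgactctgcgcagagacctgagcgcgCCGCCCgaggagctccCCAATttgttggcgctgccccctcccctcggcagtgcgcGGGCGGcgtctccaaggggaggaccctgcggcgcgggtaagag
The first window holds 1 match to CCAAT and 1 to GGGCGG, the second 1 and 3. The GGGCGG match of the first lies in the shared bases and is the last match of the second, read on the other strand. Of all 32851 promoter windows, 37.4% hold CCAAT and 35.7% hold GGGCGG, so these are common strings, and a match is not a site of binding.

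Other genes called higher were nearer the threshold. Rspo1, a Wnt agonist, was at 0.57, 0.72, 1.49, 1.31 and 0.69 RPKM in WT and 1.63, 1.69, 1.48, 1.69 and 1.74 in Dp16;D-KO/K-KO, with WT M2 inside the Dp16;D-KO/K-KO range (0.81, adjusted p = 0.0476). Gpr153, an orphan receptor, ranged over 1.86 to 2.83 and 2.72 to 4.22 (0.55, adjusted p = 0.0316), and Cmbl, a hydrolase, over 3.94 to 6.48 and 6.12 to 7.73 (0.52, adjusted p = 0.0385). Lgals4, galectin 4, ranged over 1.75 to 2.87 and 2.4 to 4.34 (0.48, adjusted p = 0.0468). Wfs1, the endoplasmic reticulum protein wolframin and a CA1 marker, read 39.6, 48.5, 33.6, 38.5 and 41.1 in WT and 59.3, 54.7, 36.9, 43.7 and 57.0 in Dp16;D-KO/K-KO (0.31, adjusted p = 0.0474), with Dp16;D-KO/K-KO M1 and M2 inside the WT range and changes of 0.14 in batch 1 and 0.42 in batch 2. Dynlt1f, a dynein light chain with near-identical copies that share reads, was uncertain, at 12.5, 27.2, 9.65, 14.3 and 12.5 in WT and 19.6, 28.4, 23.5, 17.7 and 31.6 in Dp16;D-KO/K-KO (0.72, adjusted p = 0.0476), and the authors' deposited table gives 0.24. None of these 6 was called without WT F1 and M3, with adjusted p from 0.0915 to 0.255, and each was called in 2 to 5 of the 10 fits that left a library out. The authors' deposited table calls Rspo1, Gpr153 and Cmbl against WT, but not Lgals4, Wfs1 or Dynlt1f.

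Genes that fell numbered 21, with folds between 0.522 and 0.892. The number was 6 without WT F1, 8 without WT M4, and 7, 7 and 9 without F1, F2 and M2 of Dp16;D-KO/K-KO, each left out alone. Tm6sf2, a membrane protein of lipid transport, read 2.5, 2.14, 2.02, 2.16 and 2.34 RPKM in WT and 0.96, 1.33, 1.00, 1.46 and 1.07 in Dp16;D-KO/K-KO (-0.90, SE 0.19, adjusted p = 0.0175), with no overlap. Htra4, a serine protease, read 1.53, 1.17, 1.73, 1.77 and 1.71 in WT and 0.87, 0.80, 0.97, 0.88 and 1.12 in Dp16;D-KO/K-KO, also apart (-0.70, adjusted p = 0.0208). Trpc6, a cation channel of dentate granule neurons, read 8.59, 7.11, 7.33, 6.49 and 8.32 in WT and 5.87, 4.48, 4.63, 4.98 and 5.83 in Dp16;D-KO/K-KO (-0.55, SE 0.12, adjusted p = 0.0340), with every Dp16;D-KO/K-KO library below every WT library. Chst9, a sulfotransferase, ranged over 1.89 to 2.6 in WT and 1.3 to 1.89 in Dp16;D-KO/K-KO (-0.59, adjusted p = 0.0431). Without WT F1 and M3 none of these 4 was called, with adjusted p from 0.113 to 0.255, and each was called in 3 to 6 of the 10 fits that left a library out.

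Cbs, cystathionine beta-synthase, the entry enzyme of transsulfuration, is a chromosome 21 gene in humans and sits on chromosome 17 in the mouse, outside the duplication. It read 19.1, 12.6, 15.8, 16.7 and 15.7 RPKM in WT and 8.47, 9.79, 14.7, 15.7 and 10.3 in Dp16;D-KO/K-KO (-0.47, SE 0.10, adjusted p = 0.0192). The 3 batch 2 libraries of Dp16;D-KO/K-KO were below all WT libraries. The 2 of batch 1 were above WT F2, a batch 2 library, but below WT F1 and M2 of their own batch. The change was -0.20 in batch 1 and -0.65 in batch 2. The test of that difference gave an adjusted p of 0.325, and the call was lost without WT F1 and M3 (-0.38, adjusted p = 0.214). It was the only member called of the 39 tested orthologues of chromosome 21 genes outside the segment, of which 24 had positive changes, with a median of 0.079. Pde9a, a cGMP phosphodiesterase of that list, read 7.3, 8.82, 8.29, 7.39 and 7.8 in WT and 10.2, 10.8, 9.03, 11.8 and 10.4 in Dp16;D-KO/K-KO without overlap and was not called (0.39, adjusted p = 0.0751).

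Others that fell included neuronal genes and regulators. Cdh9, a cadherin of CA3 synapses, read 11.5, 13.2, 13.4, 11.1 and 13.7 RPKM in WT and 10.2, 9.28, 9.45, 8.81 and 9.87 in Dp16;D-KO/K-KO (-0.40, SE 0.092, adjusted p = 0.0431), without overlap, and was called in 1 of the 10 fits that left a library out. Ncald, called in 2 of them, is the calcium sensor neurocalcin delta and ranged over 130.1 to 151 and 112 to 128, also apart (-0.26, adjusted p = 0.0492). Both were called without WT F1 and M3 too (adjusted p = 0.0199 and 0.0461). Fgf10, a growth factor, ranged over 3.23 to 3.71 and 2.4 to 3.07 (-0.33, adjusted p = 0.0334), and Rfx3, a transcription factor of ciliated cells, over 10.9 to 14.4 and 10.1 to 10.7 (-0.30, adjusted p = 0.0195). Their groups did not overlap. Mcts1, a translation factor on the X chromosome, ranged over 23.9 to 34.3 and 21.7 to 27.9 with overlap (-0.27, adjusted p = 0.0476). None of Fgf10, Rfx3 and Mcts1 was called without WT F1 and M3 (adjusted p = 0.223, 0.127 and 0.0917).

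The remaining calls outside the segment were named after their values were seen. Hexa, a lysosomal hexosaminidase, Ggact and Rph3al, an effector of vesicle fusion, rose by 0.24 to 0.38. Tmub2, Mars, Asprv1, Zc3h15, Kcna1, Fam131b, Ppfia2, Nars and D130043K22Rik fell, with changes of -0.16 to -0.73. Kcna1, a voltage-gated potassium channel of axons, ranged over 27.1 to 31.2 RPKM in WT and 23.7 to 26.8 in Dp16;D-KO/K-KO without overlap (-0.21, adjusted p = 0.0404). Ppfia2, a liprin of presynaptic active zones, ranged over 30.4 to 39.2 and 27.9 to 32.4 (-0.26, adjusted p = 0.0466). Each of the 12 was called in 1 to 8 of the 10 fits that left a library out, and none without WT F1 and M3.

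Markers of cell types and neighbouring tissue were compared by list. Dentate granule neuron markers had the most negative median of the 16 marker lists, at -0.26 against 0.0033 over all genes. Of the 12, 10 were lower, 2 were positive, up to 0.15, and 1 was called, Trpc6. Over all genes tested, 6796 of 13971 had negative changes and 0.15% were called lower. All Dp16;D-KO/K-KO libraries lay below all WT libraries in 2 of the 12, and in 0.408% of all genes. Npnt, nephronectin, read 8.27, 7.76, 7.14, 7.91 and 8.94 RPKM in WT and 6.54, 6.64, 6.69, 6.06 and 5.76 in Dp16;D-KO/K-KO, apart but not called (-0.33, adjusted p = 0.0688). Glis3, a zinc-finger transcription factor, ranged over 3.12 to 3.92 and 2.74 to 3.23 (-0.30, adjusted p = 0.121). The authors' deposited table calls Npnt and Glis3 lower. Summed over the 12 markers, WT libraries held 161 to 170.4 RPKM and Dp16;D-KO/K-KO libraries 137 to 157. The 2 ranges did not overlap. Dp16 libraries held 137 to 156 RPKM and Dp16/D-KO libraries 138 to 178. The median against Dp16 was 0.0039. In whole hippocampus, fewer cells of a type and less RNA per cell cannot be told apart.

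Choroid plexus markers had positive changes in 17 of 17 genes, with a median of 0.52, and 0 were called in limma. That median rested on a few libraries. Summed over the 17 genes, WT held 76.98, 1902, 1965, 739.6 and 2906 RPKM and Dp16;D-KO/K-KO 1976, 2965, 4457, 3174 and 88.2, so WT F1 and Dp16;D-KO/K-KO M3 were the lowest of each group. The median was 2.28 in batch 1, -0.44 in batch 2, and -0.47 without WT F1 and M3, and 0.75 without WT F1 and Dp16;D-KO/K-KO M3. Ependymal markers were positive in 10 of 10, with a median of 0.51 that was 0.14 without WT F1 and M3, and meningeal fibroblast markers in 10 of 11 (0.25, and -0.009 without WT F1 and M3). None of either was called. Blood genes were positive in 5 of 5 with a median of 0.11, and -0.21 without WT F1 and M3. Striatum (8 of 9 positive, median 0.20) and thalamus markers (6 of 8, 0.15) had none called, and cortex markers (6 of 10, 0.07) had 1, Rspo1.

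**Figure D4:**
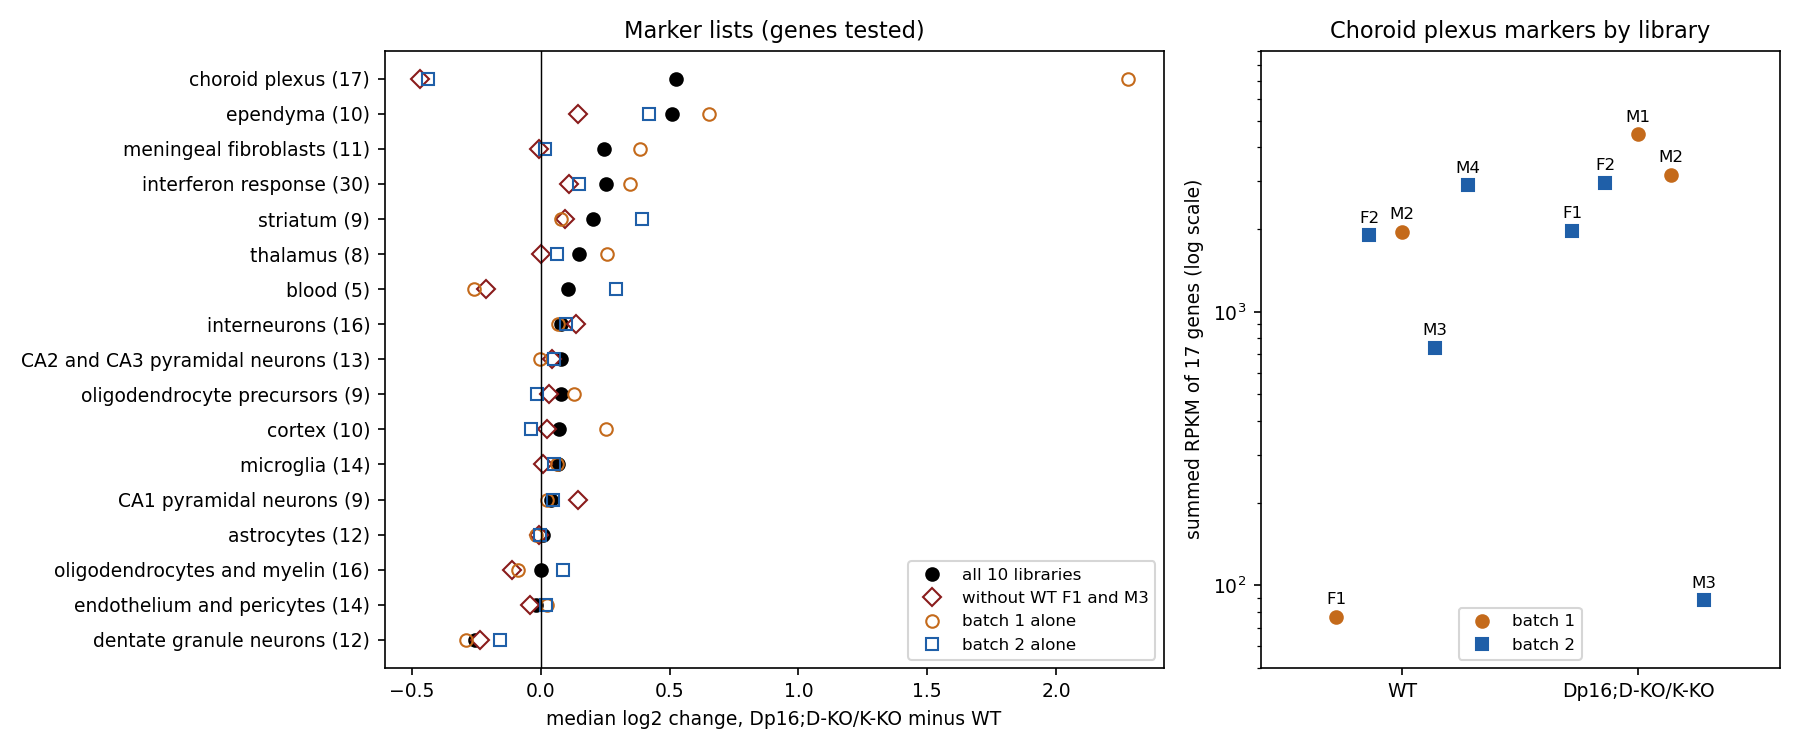
Left, median log2 change from WT to Dp16;D-KO/K-KO (horizontal axis) of 16 marker lists and the interferon response list, with all 10 libraries, without WT F1 and M3, and in each batch alone, with the number of genes tested in parentheses. Right, summed RPKM of 17 choroid plexus markers (log axis) by library. The choroid plexus median moves from 2.28 in batch 1 to -0.44 in batch 2, and WT F1 and Dp16;D-KO/K-KO M3 are the low points on the right.

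Markers of the other hippocampal cells stayed near the background. The median was 0.038 for 9 CA1 markers, of which Wfs1 alone was called, and 0.078 for 13 markers of CA2 and CA3, of which Pcp4, a segment gene, alone was called. It was 0.079 for 16 interneuron markers, 0.0081 for 12 astrocyte markers, -1.5e-05 for 16 oligodendrocyte and myelin genes, 0.077 for 9 markers of their precursors, 0.067 for 14 microglial markers and -0.018 for 14 endothelial and pericyte markers, with none called. Among microglial markers, Ctss, cathepsin S, had the lowest p, with 30.6 to 37.2 RPKM in WT and 35.2 to 48.4 in Dp16;D-KO/K-KO (0.22, adjusted p = 0.0564). In the CA2 and CA3 list 7 genes were positive and 6 negative, from -0.47 for Iyd, an iodotyrosine deiodinase, to 0.63 for Pcp4. Cacng5, an AMPA receptor auxiliary subunit, was also at 0.63, and the groups overlapped for Iyd, Pcp4 and Cacng5. Prkcd, a protein kinase C, read 11.6, 9.35, 11.3, 11.5 and 7.43 RPKM in WT and 19.1, 11.6, 13.02, 20.7 and 14.4 in Dp16;D-KO/K-KO (0.60, adjusted p = 0.127). Dp16;D-KO/K-KO F1 and M2 were highest in it, and they were also highest in summed thalamus markers, at 69.3 and 101 RPKM against 37.5 to 59.3 in the other 8 libraries. The part of those markers' cells in the values was not tested.

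Pathways in which segment genes act were described the same way. The receptors for interferon rose, and interferon response genes were positive in 27 of 30, with a median of 0.25 and none called. Their summed level was 183 to 292 RPKM in WT and 243 to 297 in Dp16;D-KO/K-KO, with WT F1, M2 and M3 lowest, and the median was 0.11 without WT F1 and M3. Rtp4, an interferon-induced chaperone, had the lowest p (1.13 to 2.2 against 1.96 to 2.55, 0.37, adjusted p = 0.253), and Lgals3bp, a secreted glycoprotein, was at 0.77 (adjusted p = 0.332).

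Of 17 calcineurin and NFAT pathway genes outside the segment 7 were positive, with a median of -0.011 and none called. Calm2, a calmodulin, ranged over 986 to 1154 RPKM in WT and 899 to 1030 in Dp16;D-KO/K-KO (-0.14, adjusted p = 0.333). Of 15 GIRK channel, G-protein and GABA-B receptor genes 10 were positive, with a median of 0.021 and none called. Gnb5, a G-protein beta subunit, came nearest, at 43.9, 42.7, 42.5, 41.3 and 36.8 in WT and 44.7, 47.1, 47.3, 47.7 and 45.9 in Dp16;D-KO/K-KO (0.17, adjusted p = 0.0676). Its groups did not overlap. Gabbr1, a GABA-B receptor subunit, ranged over 133 to 155 and 142 to 169 (0.10).

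No gene was called among 33 subunits of glutamate and GABA-A receptors (median 0.0013), 21 genes of presynaptic vesicle release (-0.022), 24 immediate early genes (0.017) or 16 genes of neurogenesis and the cell cycle (0.012). The same held for 16 circadian clock genes (0.059), 14 glucocorticoid-responsive and metallothionein genes (-0.044), 17 cholesterol synthesis genes (0.074) and 15 genes of the unfolded protein and integrated stress response (0.059). Bdnf, a neurotrophin, ranged over 10.7 to 11.6 RPKM in WT and 8.15 to 11.01 in Dp16;D-KO/K-KO (-0.27, adjusted p = 0.212), and Nptx2, a pentraxin of excitatory synapses, over 14.5 to 19.5 and 17.9 to 27.01 (0.41, adjusted p = 0.121). Fdft1, squalene synthase, read 18.9 to 21.7 and 22.7 to 23.3 without overlap (0.20, adjusted p = 0.156). The levels of the stress transcription factor Atf4 were 76.4, 79.8, 67.3, 62.4 and 83.4 in WT and 52.9, 54.4, 60.2, 61.4 and 53.9 in Dp16;D-KO/K-KO, also without overlap and not called (-0.38, adjusted p = 0.0771).

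The test of what sets Dp16;D-KO/K-KO apart from Dp16 called 5 genes higher (0.0358%) and 0 lower (0%) in limma, with 1528 at an unadjusted p under 0.05 in either direction, and the authors' deposited table calls 44. Rfx5, a factor that drives MHC class II genes, averaged 6.56 ± 0.29 RPKM in Dp16;D-KO/K-KO (SD, n = 5), 4.64 ± 0.48 in Dp16 (SD, n = 7) and 6.51 ± 0.34 in WT. Its difference from Dp16 was 0.49 (0.34 to 0.64, adjusted p = 0.00825) while Dp16;D-KO/K-KO and WT ranged over 6.2 to 6.87 and 5.97 to 6.84. Pik3r3, a regulatory subunit of PI3-kinase, averaged 12.1 ± 1.5 RPKM in Dp16;D-KO/K-KO (SD, n = 5), 9.14 ± 0.8 in Dp16 (SD, n = 7) and 11.2 ± 0.61 in WT, with a difference of 0.40 (0.26 to 0.54, adjusted p = 0.0195). Rec8, a meiotic cohesin, averaged 2.002 ± 0.47 RPKM in Dp16;D-KO/K-KO (SD, n = 5), 0.71 ± 0.34 in Dp16 (SD, n = 7) and 1.17 ± 0.42 in WT, a difference of 1.46 (adjusted p = 0.0268). Tmem181a and Dynlt1f, neighbours in a region of chromosome 17 with near-identical copies, differed from Dp16 by 0.84 and 0.94 (adjusted p = 0.0195 for both), and their levels are uncertain. None of the 5 was called without Dp16;D-KO/K-KO F2, M1 or M2, each left out alone, while 10 genes were called without WT M3 and 3 without Dp16;D-KO/K-KO M3.

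The difference of the change between the batches was also tested, and 0 of 13971 genes (0%) were called in limma, with 1723 at an unadjusted p under 0.05 and a lowest adjusted p of 0.12. In each batch alone, fitted with the other groups of that batch, 70 genes were called in batch 1 and 50 in batch 2. Without WT M4, 46 genes differed between the batches, and without Dp16;D-KO/K-KO M1, 18 did.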

How the data were processed

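Hippocampal RNA was selected on oligo(dT) beads and sequenced as single-end 50-base reads, per the labels' protocols of batch 1. Per the submitters' processing notes, HISAT (version not given) and mm10 were used. Neither the labels nor the file headers say how reads were counted, whether by strand, or with which gene lengths. The authors deposited RPKM to 2 decimals, together with their own log2 fold changes and adjusted p-values from a test that the file headers do not name. The RPKM scale divides by gene length and library total, so a few abundant genes can shift all others.

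Of 21785 genes in the table, 13971 with a mean of at least 0.5 RPKM over all 23 libraries were tested with limma 3.58.1 (R 4.3.3) on log2(RPKM + 0.1), with an intensity trend, group and batch as terms, 2-sided tests and Benjamini-Hochberg adjustment over all genes tested. Figures were drawn with matplotlib 3.10.9. The fit was also run on data simulated from its own model with independent noise. Such data hold no mislabelled libraries and no varying choroid plexus content, so they do not test the fit against those. Group members and the 29 gene lists were chosen with earlier results of these data known. Named genes were the targeted pair, outside the segment the 10 called genes with the largest change each way at a mean of at least 1 RPKM and the 5 with the smallest adjusted p, in the segment the 10 largest and 5 smallest changes at that level, the members with the smallest p of each other list, and genes called against Dp16. Abundant segment genes were added with values known. Depth was estimated from 388 short, low genes, as the depth at which their values came nearest to whole reads. At that depth 50.0 to 59.3% of the values used were within 0.15 reads of a whole number. By chance 30% would be at a fixed depth, and choosing the best depth raises the share by itself. Reads were therefore not recovered, and no count test was run. Every column of per-library values belonged to 1 of the 23 libraries. Alternatives were another pseudocount, no filter, other covariates, other sets of libraries, rescaled libraries, no trend and a replicate block.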

Additional observations from a re-analysis of the deposited data

Results flagged for a closer look

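Single libraries stood apart from the other 4 of their group in 9 of the 146 sets of 5 values examined, by a gap to the nearest library larger than 0.71 of the group's range; chance gives about 1 in 20. For the nonagouti gene a, WT M2 read 0.75 RPKM and the other WT libraries 0.47 to 0.50. For Selenov, WT F2 read 0.43 and the others 0.19 to 0.24. For Slc5a5, WT F1 read 5.95 and the others 7.15 to 7.29. For Dynlt1f, whose copies share reads, WT F2 read 27.18 and the others 9.65 to 14.32. For Rec8, WT M2 read 1.90 and the others 0.87 to 1.16. Among Dp16;D-KO/K-KO libraries, Mcts1 read 27.94 in M1 and 21.68 to 22.72 in the others, and Il10rb read 6.60 in M3 and 8.48 to 9.01 in the others. Summed astrocyte markers were at 1368.9 RPKM in WT M2 and 1260.7 to 1288.2 in the other WT libraries. Summed meningeal fibroblast markers were at 54.3 RPKM in Dp16;D-KO/K-KO M3, the library with the least choroid plexus RNA of its group, and 115.55 to 132.2 in the others. No cause was tested for any of these.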

How the results depend on the processing

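Against WT, the segment median and both targeted genes kept their direction in every alternative run, and many calls outside the segment were lost. The 105 calls became 65 without a covariate, 61 with only the groups compared in the fit and 50 in batch 2 alone (46 of them higher). The 21 lower calls became 12 without a filter on low values, 3 without a covariate, 1 with only the groups compared, 11 without WT F1 and M3, 12 in batch 1 and 4 in batch 2, and 6 to 27 with 1 library left out. The 38 outside the segment became 22 without a filter, 8 without a covariate, 9 with only the groups compared, 23 without WT F1 and M3 and 6 in batch 2, and 14 to 51 with 1 library left out. Segment calls were 42 in batch 1 and 44 in batch 2. Of 1127 values of 49 single gene changes and list medians under alternatives, 344 lost a call in the same direction, 4 gained one and no called change reversed. Kcnj6 was not called in batch 1 (0.36) or batch 2 (0.57) alone.

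Against Dp16 the 5 calls became 3 without a covariate, 13 with only those groups in the fit, 1 in batch 1, 0 in batch 2, and 0 to 10 with 1 library left out, and the authors' deposited table calls 44. The difference between batches gave 4 calls without a filter, 1 with the sex letter as covariate, and 0 to 46 with 1 library left out.

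Chosen after seeing the data, leaving out WT F1 and Dp16;D-KO/K-KO M3 gave 74 calls, 5 lower and 11 outside the segment, with 1 call against Dp16. Placing WT M3 in batch 1 gave 113 calls, of which 89 were among the 105 of the main fit. Outside the segment it gave 45 calls, and 23 of these were among the 38 of the main fit.

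The replicate block, with sex letter and number as the pairing, gave 75 calls, 67 of them among the 105, with 3 lower and 17 outside the segment. Same-labelled libraries of a batch deviated together by a mean r of 0.0489 over 26 pairs, and 14 pairs exceeded 0.1. Libraries of the same batch and letter but another number had a mean r of -0.0175 over 26 pairs, and 8 exceeded 0.1. WT and Dp16;D-KO/K-KO shared label and batch in only 3 pairs (mean r 0.1). These values do not decide whether the numbers pair the libraries. The cause of the changed calls was not tested.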

Other observations

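Other groups of genes were looked at after their values were seen, and are given as values with no test of their own. In the list of 15 unfolded protein and integrated stress response genes, 9 were positive against WT, with a median of 0.059, and the median against Dp16 was 0.14. Its member Atf4, a stress transcription factor picked for its direction, was at -0.41 against Dp16 (adjusted p = 0.107) and -0.38 against WT. It passed neither limma test. Chac1, a glutathione-degrading enzyme that is a known target of Atf4, read 4.55, 5.19, 3.76, 3.07 and 4.91 RPKM in WT. In Dp16;D-KO/K-KO it read 2.8, 2.57, 2.91, 2.66 and 2.95 (-0.59, adjusted p = 0.151). Against Dp16 it was at -0.79 (adjusted p = 0.0782), and it too passed neither limma test. The authors' deposited table calls both genes against Dp16 and neither against WT. Of 20 cytosolic aminoacyl-tRNA synthetases, the enzymes that charge tRNAs with amino acids, 16 had negative changes from WT, with a median of -0.078 against 0.0033 over all genes. Mars and Nars, for methionine and asparagine, fell, 2 of the 20, while 0.15% of all genes tested were called lower. Mars ranged over 13.9 to 17.9 RPKM in WT and 12.1 to 16.2 in Dp16;D-KO/K-KO (-0.24, adjusted p = 0.0171). Nars ranged over 64.7 to 76.1 and 58.2 to 67.5 (-0.18, adjusted p = 0.0476), and both overlapped between groups. Neither was called without WT F1 and M3 (adjusted p = 0.0832 for Mars and 0.0518 for Nars). Mars was called in 6 and Nars in 2 of the 10 fits that left a library out. Against Dp16, 17 of the 20 were negative, with a median of -0.06.

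Of 15 basement membrane genes tested, 11 had positive changes and 3 rose, Col4a1, Col4a2 and Col15a1. Their median was 0.19 over the 15, against 0.0033 over all genes, of which 0.601% were called higher. Of the 84 genes called higher, 67 were segment genes and 17 lay outside it. The list was put together after the collagen calls were seen. Its median was 0.057 without WT F1 and M3, when the call of Col15a1 was lost (adjusted p = 0.174).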
